A study of Sus scrofa with 5 samples.

Results

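The newborn absorptive enterocytes were the cells of the piglet cecum with the highest share of TMIGD1 and DPEP1 transcripts. They were chosen from counts of unique molecular identifiers (UMIs, the tags that mark single captured transcripts). A barcode counted as such a cell when it had at least 200 detected genes, at least 2000 UMIs, under 30% of its UMIs on the 13 mitochondrially encoded genes, and at least 15 UMIs of TMIGD1 plus DPEP1 per 10000 UMIs. This rule found 4188 cells among 42305 barcodes that passed the same filters on genes, UMIs and mitochondrial share, and among 72701 barcodes with at least 200 genes in the whole series.

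The study profiled mucosal cells of the cecum of male large white piglets at birth (d0) and at d1, d7, d14 and d21 of suckling, and the labels name no treatment. Cells of 5 piglets were mixed at each age and gave 1 library per age by 10x Genomics 3′ single-cell RNA sequencing, so that age and library cannot be told apart and no test between ages was possible. The libraries held 83604711 UMIs at d0, 80196009 at d1, 48592431 at d7, 91928553 at d14 and 69583669 at d21. The mucosa was scraped and dissociated with EDTA and trypsin, so the shares of cells describe what this dissociation released. The libraries shared 37 to 79 barcodes with at least 200 genes per pair, and no barcode belonged to the chosen cells in more than 1 library.

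Absorptive enterocytes line the surface of the gut and carry a brush border of microvilli that holds peptidases, disaccharidases and transporters. In suckling mammals, enterocytes of the distal small intestine also take up milk proteins by endocytosis and digest them in lysosomes, and reclaim bile acids. Colonic absorptive cells are known instead for the exchange of sodium, chloride and bicarbonate and for carbonic anhydrases.

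Newborn absorptive enterocytes were common among the barcodes that passed at d0 and were nearly gone from the libraries by d7. There were 3283 of them among 6114 passing barcodes at d0, or 53.7% (exact Clopper-Pearson 95% interval 52.4 to 55.0). That share was 38.6% with a limit of 25 per 10000, 46.3% with no mitochondrial limit, 49.98% with a mitochondrial limit of 20% and 21.6% of all barcodes with at least 200 genes. At d1 there were 874 of 8982, or 9.73% (9.13 to 10.4). At d7 there were 30 of 5425, or 0.553% (0.373 to 0.789). None of 12165 barcodes qualified at d14, which allows a share of up to 0.0247% (3 counts of the total, a different limit from the exact intervals), and 1 of 9619 qualified at d21. Epithelial barcodes of any kind also were fewer after d1, at 5395, 4212, 480, 259 and 890 from d0 to d21, and the chosen cells made up 60.9% of them at d0, 20.8% at d1 and 6.25% at d7. Epithelial barcodes were the chosen cells plus all others with at least 10 UMIs of EPCAM, KRT8, KRT18, KRT19 and CDH1 per 10000. All intervals and limits in this text cover counting error only, since piglets were not separate samples.

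**Figure D1:**
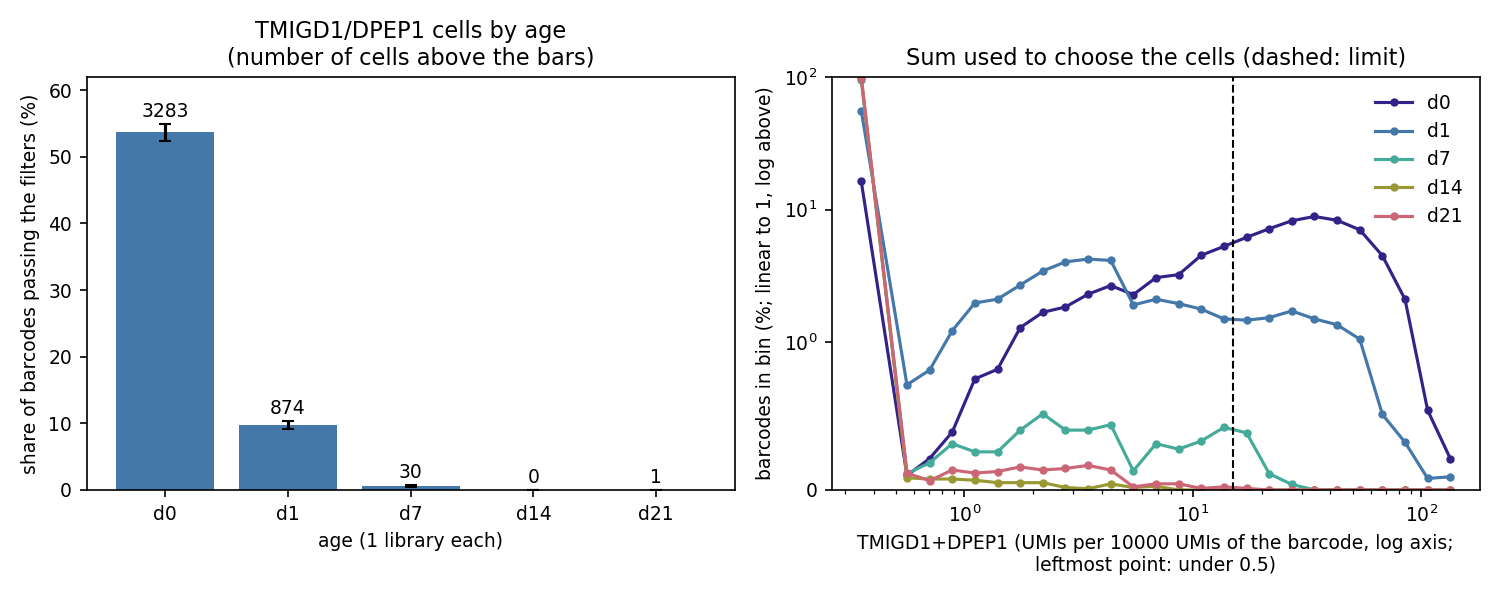
Left, share of passing barcodes that met the rule at each age (bars, %; error bars, exact 95% intervals), with the number of cells above each bar. Right, distribution of TMIGD1 plus DPEP1 (UMIs per 10000, log axis) over passing barcodes of each library, as the share of barcodes in each bin (%, linear to 1 and log above), with the limit of 15 dashed and barcodes under 0.5 as the leftmost point. Apart from that point, the d0 curve is highest above the limit, the d1 curve has barcodes on both sides, and at d7, d14 and d21 at least 94.7% of barcodes lie in the leftmost point.

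The limit lay within a continuous range. The summed rule genes had a median of 34.4 per 10000 in the chosen cells at d0 (quartiles 23.8 and 49.5), 30.7 at d1 (21.9 and 44.9) and 17.9 at d7. Between 15 and 18 per 10000, just inside the limit, lay 284 barcodes at d0, 94 at d1 and 17 at d7. Just outside, between 12 and 15, lay 310, 139 and 24. A further 3428 barcodes reached the limit but failed the filter on UMIs or on mitochondrial share, 2621 of them at d0. The cells were deep: the median was 9025 UMIs and 2565 genes per cell at d0, 8004 UMIs and 2466 genes at d1, and 33948 UMIs at d7.

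The 5 marker genes of the label were each measured in most of the d0 and d1 cells, and 2533 of 3283 cells at d0 and 646 of 874 at d1 had a UMI of all of them. TMIGD1, an adhesion protein of the microvilli (Sscrofa11.1 chr12:46411943-46429996 in the RefSeq annotation), and DPEP1, a membrane dipeptidase (chr6:361187-385757), chose the cells and are given as a description. The level of a gene in a group of cells is the sum of its UMIs per 10000 UMIs of those cells, and because the library reads the 3′ end of transcripts it does not scale with gene length. TMIGD1 had a level of 22.9 at d0 and 18.1 at d1, and DPEP1 of 12.1 and 14.2. PRAP1 (chr14:141325965-141329955), which encodes a secreted proline-rich acidic protein of the intestinal epithelium, had a level of 35.7 at d0 (exact Poisson 95% interval 35.5 to 35.9) and 32.1 at d1 (31.7 to 32.5). SMIM24 (chr2:75178848-75182271), a small membrane protein, had 7.16 and 7.43. MEP1B (chr6:116015021-116049796), the beta subunit of the brush border protease meprin, had 4.44 and 4.56. None of PRAP1, SMIM24 and MEP1B was past 2 times between the ages.

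In the other epithelial cells of the same libraries the markers were lower, and lower still in non-epithelial cells. Non-epithelial cells had to have under 10 per 10000 of the 5 epithelial genes, so how much free RNA a droplet can hold was not tested. PRAP1 had a level of 9.16 in 2112 other epithelial cells and 0.936 in 388 non-epithelial cells at d0, and 3.09 and 0.788 in 3338 and 4249 such cells at d1. A UMI of MEP1B was found in 88.0% of the chosen cells at d0, 36.6% of other epithelial cells and 3.87% of non-epithelial cells, at median depths of 9025, 8226 and 2634 UMIs. With each cell thinned to 2000 UMIs these shares were 53.7%, 13.7% and 2.32%. At least 10 UMIs of the 5 epithelial genes per 10000 were present in 3282 of 3283 cells at d0 and in 865 of 874 at d1.

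Defining genes of other cell types were mostly low in the d0 cells. The goblet, enteroendocrine, crypt, myeloid, stromal and endothelial sums were more than 2 times higher in the d1 cells. The summed level of the 9 goblet genes was 8.36 at d0 and 21.7 at d1, led by SPINK4 at 3.33 at d0 and TFF3 at 13.03 at d1, against 64.97 and 62.04 in the other epithelial cells. The 10 stromal genes summed to 0.0776 at d0 and 2.84 at d1, led at d1 by COL3A1, and the 6 endothelial genes to 0.0301 and 1.29, led at d1 by PLVAP. The stromal sum was also higher in the other epithelial cells of d1, at 0.214 and 5.38, and no stromal or endothelial gene was at 0 at either age. Without 208 cells that clustering grouped by such genes (sub-clusters 9 to 12), the sums at d0 and d1 were 3.93 and 5.45 for goblet, 0.0270 and 1.12 for stromal and 0.0157 and 0.377 for endothelial genes. Without the same cells they were 1.11 and 2.43 for enteroendocrine, 0.0208 and 0.322 for myeloid, 0.178 and 0.189 for lymphocyte, 0.552 and 0.801 for tuft, 0.0670 and 0.165 for crypt, 1.16 and 0.955 for proliferation and 0.0151 and 0.0170 for erythroid genes. A single d1 barcode held 709 UMIs of the enteroendocrine genes, and without the barcode richest in them at each age, a choice made after seeing the data, that sum was 0.916 at d0 and 1.43 at d1. The 12 lymphocyte genes summed to 0.565 and 0.710, led by CCL5, with 3 of the 12 at 0 at d0. The 9 myeloid genes summed to 0.0401 and 1.12, the 9 enteroendocrine genes to 1.08 and 2.96, and the 7 crypt genes to 0.0664 and 0.172. OLFM4, the crypt marker, had a level of 0.0152 at d0 and 0.0832 at d1 in the chosen cells, against 1.10 and 4.48 in the other epithelial cells. The 8 proliferation genes summed to 1.18 and 1.28, most of it HMGB2, the 7 tuft genes to 0.555 and 0.801, and the 6 measured erythroid genes to 0.0152 and 0.0157.

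The 30 barcodes of d7 went against the label. All of them had UMIs of TMIGD1, PRAP1 and DPEP1, but 7 of 30 had a UMI of SMIM24 and 13 of 30 a UMI of MEP1B, although their median depth was several times that of the d0 cells. TMIGD1 had a level of 16.2 in them and DPEP1 of 1.89, so the rule was met mainly through TMIGD1. Their leading gene among these lists was FABP1, a cytosolic fatty acid carrier, at 311.9 against 29.2 in the d0 cells. APOA1, APOE, FABP6, SLC10A2 and SLC6A19 had no UMI among 1249207, which allows a level of up to 0.0240, and APOB, the structural protein of chylomicrons, had a level of 0.0560 against 6.99 at d0. KRT20, a keratin of differentiated gut epithelium, had 35.3 against 14.7, and SLC9A3, the apical sodium-hydrogen exchanger, 13.3 against 1.51. Several of these traits were shared by the 450 other epithelial cells of d7. In them FABP1 had 79.7, against 21.4 in such cells at d0. SMIM24, MEP1B, APOA1 and APOB had 0.0166, 0.0216, 0.0216 and 0.0141 in the same d7 cells. How far the difference from the d0 cells was particular to the 30 barcodes was not tested. The barcodes of d7 are therefore called TMIGD1-positive FABP1-high cells here and enter none of the comparisons that follow, and the single barcode of d21 had 4 UMIs of TMIGD1 and none of DPEP1, SMIM24 or MEP1B.

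To show what the chosen cells shared beyond the rule genes, their levels were set beside those of the other epithelial cells of the same library. Because the cells were picked on TMIGD1 and DPEP1, genes that vary together with these had to differ, so the values are a description. A gene that reached the filter on mean level only through the group where it was high also had to differ. The counts of listed genes past 2 times and the rankings by ratio, here and in the comparisons that follow, are therefore descriptions. They support nothing by themselves. Among 2550 genes with a mean level of at least 0.5 in the compared groups at d0, 125 (4.9%) were at least 2 times higher in the chosen cells and 42 (1.65%) at least 2 times lower, on levels with 0.1 added, and the median log2 ratio was 0.08. At d1 the counts were 263 of 2659 (9.89%) and 118 (4.44%), with a median of 0.05. The other epithelial cells at d1 included 219 crypt cells with at least 20 UMIs of OLFM4 per 10000, against 14 at d0.

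Brush border hydrolases had higher levels in the chosen cells. Of 19 listed genes 17 were in the matrices and 10 passed the filter on mean level at d0. Apart from DPEP1, which chose the cells, the 9 that passed were at least 2 times higher than in the other epithelial cells, beside 4.9% of all genes, but 3 of them, such as SI at 0.237, had a level under 0.5 in those other cells. ANPEP, aminopeptidase N, had a level of 5.39 against 1.60 at d0 and 8.69 against 1.69 at d1. NAALADL1, a peptidase first described in the ileum, had 3.95 against 1.27 and 4.99 against 0.693. ENPEP, aminopeptidase A, had 2.70 against 0.979 and 3.05 against 0.477. Some other peptidases of the list were low, MEP1A, the alpha subunit of meprin, with 0.238 at d0 and 0.300 at d1 and MME, neprilysin, with 0.135 and 0.215. Of the disaccharidases, SI, sucrase-isomaltase, had a level of 1.03 at d0 and 0.731 at d1, while LCT, the lactase that digests milk sugar, had 0.000859 (3 UMIs) and 0.00241, and MGAM 0.00830 and 0.00362, both near 0. Of the brush border structure genes, 5 of the 15 that passed besides TMIGD1 were at least 2 times higher at d0 (SMIM24, PRAP1, CDHR2, CDHR5 and SLC9A3R1) and none lower. CDHR5 and CDHR2, the cadherins that link neighbouring microvilli, had levels of 5.17 and 2.54 at d0 against 2.16 and 0.924, while VIL1, the actin-bundling villin, was just under 2 times, with 3.43 against 1.72.

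Several lipoprotein and bile acid genes were higher as well. Of 22 genes of lipid absorption 9 passed at d0, of which 4 were at least 2 times higher (APOA1, APOB, DGAT1 and SLC27A4), beside 4.9% of all genes, and none lower, beside 1.65%. APOA1, the main protein of high density lipoprotein, had a level of 16.9 in the chosen cells at d0 against 4.64 in other epithelial and 2.49 in non-epithelial cells, and 35.3 at d1 against 1.94 and 8.49. APOB had 6.99 against 2.77 at d0 and 8.63 against 0.586 at d1. FABP1 was closer between the groups, at 29.2 against 21.4 and 11.14 against 7.41. FABP2, the intestinal fatty acid carrier of the small intestine, had only 0.107 and 0.233. Of the bile acid genes 3 of 5 that passed were at least 2 times higher at d0, with a list median of 1.64. SLC10A2, the apical bile acid transporter of the ileum (chr11:71328801-71348779), had a level of 2.24 against 0.301 at d0 and 1.19 against 0.0683 at d1. A UMI of it was found in 73.5% of the chosen cells at d0 against 20.6% of other epithelial and 1.03% of non-epithelial cells, and after thinning in 35.5%, 5.30% and none of 388. SLC51A and SLC51B, the basolateral exporter pair, had levels of 4.54 and 14.3 at d0 against 0.956 and 7.26. The cytosolic carrier FABP6 had 5.42 against 1.67, and few cells held most of it. NR1H4, the bile acid receptor, had 1.49 against 0.737, and FGF19, its hormone target, 0.0587. Among the other epithelial cells of d0, 731 were set apart by high FABP1, at a level of 49.1. FABP6 had 3.28 in these 731 cells, so the chosen cells were under 2 times higher for it. SLC10A2 and SLC51A had 0.395 and 1.30 in the same 731 cells, and for both the chosen cells were past 2 times higher.

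**Figure D2:**
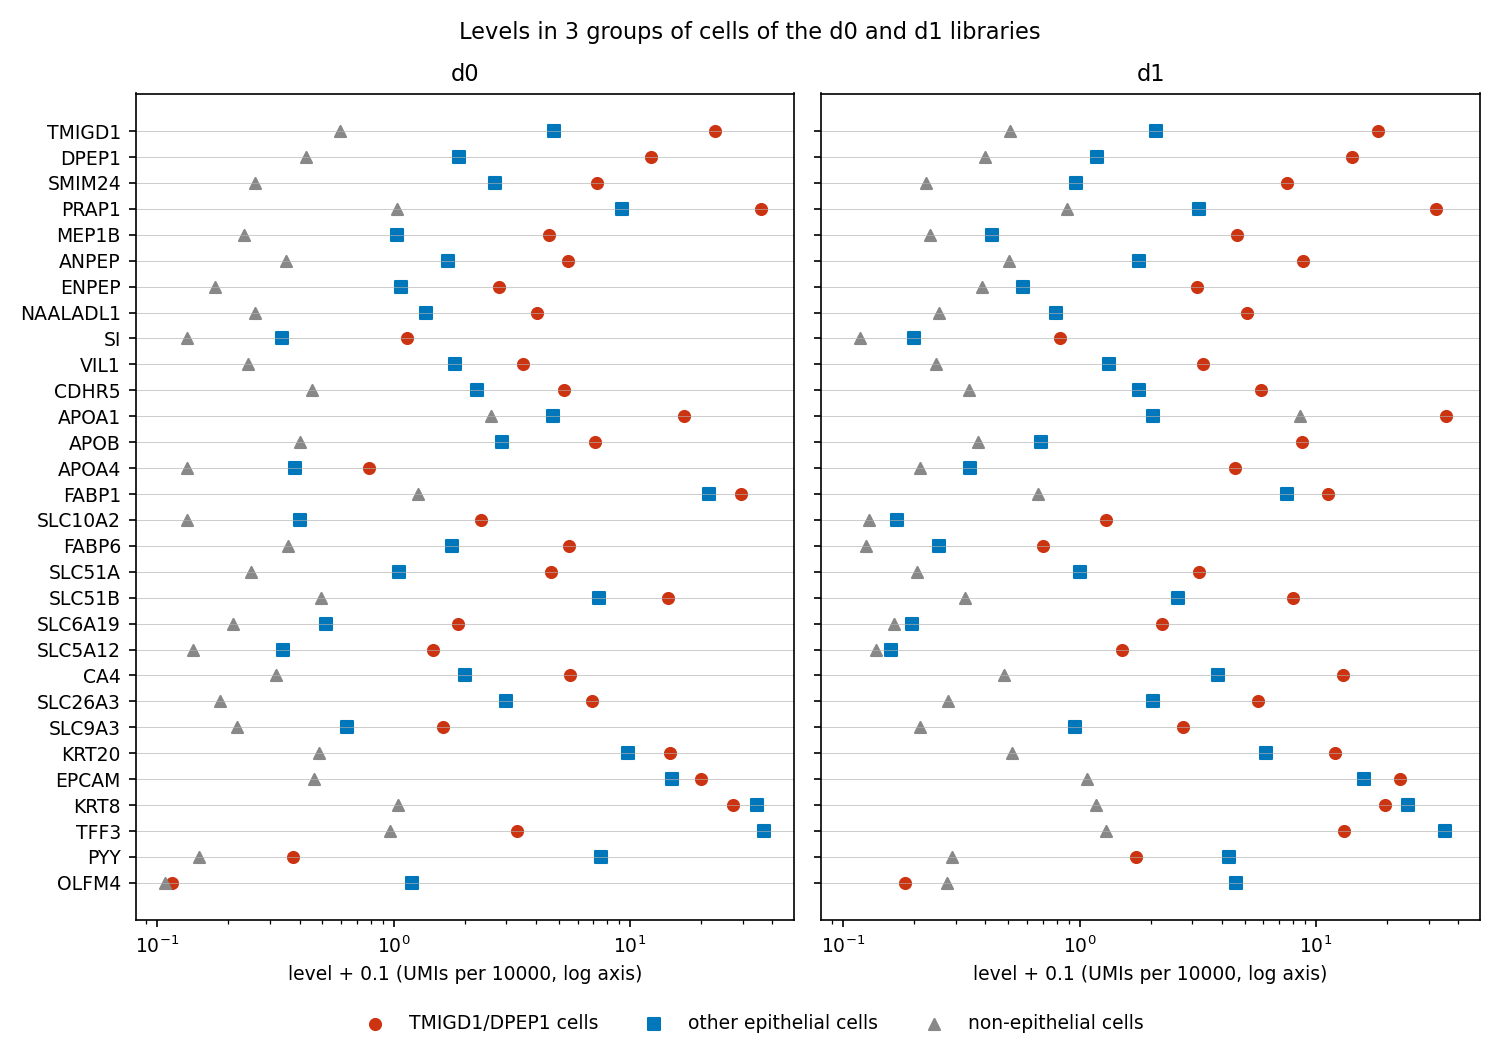
Levels of label markers and of genes of the lists (UMIs per 10000 plus 0.1, log axis) in the chosen TMIGD1/DPEP1 cells (circles), other epithelial cells (squares) and non-epithelial cells (triangles) of the d0 library (left) and the d1 library (right). Peptidase, lipoprotein and bile acid genes lie to the right in the chosen cells, and TFF3, PYY and OLFM4 to the left of the other epithelial cells. TMIGD1 and DPEP1 chose the cells.

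Transporters of nutrients and ions were both present. SLC6A19, the neutral amino acid transporter, had a level of 1.77 against 0.416 at d0 and 2.14 against 0.0962 at d1. SLC5A12, a sodium-coupled lactate transporter, had 1.37 against 0.242 and 1.41 against 0.0598. SLC5A1, the sodium-glucose cotransporter, had 1.52 against 0.840, the peptide transporter SLC15A1 had 0.750 against 0.203, and SLC2A2, the basolateral glucose transporter of the small intestine, had 0.0258. Of the colonic ion and water transport genes, 6 of 16 that passed were at least 2 times higher at d0 (CA4, SLC26A3, SLC9A2, SLC9A3, MS4A12 and CLCA4), beside 4.9% of all genes, and 1, the basolateral cotransporter SLC12A2, at least 2 times lower, beside 1.65%. CA4, a membrane carbonic anhydrase, had 5.48 against 1.90 at d0 and 12.9 against 3.76 at d1, and SLC26A3, the chloride-bicarbonate exchanger, 6.83 against 2.88 and 5.56 against 1.95. AQP8, the water channel of colonic surface cells, had 0.154 at d0. As a group, the cells thus held transcripts known from ileal and from colonic absorption, with both the bile acid transporter and the carbonic anhydrase higher than in the remaining epithelium.

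Apart from the 5 label markers and unnamed LOC genes, the 10 genes furthest above the other epithelial cells at d0, by the ratio, were MUC12, SLC10A2, PMP22, ASS1, GPRC5A, CCL20, SLC51A, SLC5A12, LYPD8 and HSPA6. MUC12, SLC10A2, ASS1, GPRC5A, SLC5A12 and HSPA6 had a level under 0.5 in the other epithelial cells. They reached the filter only through the chosen cells and so had to be high there. MUC12, a membrane mucin of the colon, had a level of 1.29 against 0.0853 and the largest log2 ratio, 2.90. ASS1, argininosuccinate synthase of arginine synthesis, had 2.10 against 0.394. CCL20, a chemokine that draws lymphocytes and dendritic cells to the epithelium, had 7.53 against 1.62 at d0 and 12.9 against 3.12 at d1. LYPD8, a secreted protein that keeps flagellated bacteria off the colonic surface, had 15.96 against 3.81 and 33.1 against 5.54. Secretory genes were at the other end. TFF3, of the goblet genes, had a level of 3.23 against 36.8 at d0, and PYY, of the enteroendocrine genes, 0.274 against 7.41. PYY reached the filter through the other epithelial cells.

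Of 19 lysosomal genes that passed, 2 were at least 2 times higher at d0, beside 4.9% of all genes, and 15 at d1, beside 9.89%. CTSZ, cathepsin Z, had a level of 6.95 against 2.77 at d0 and 6.97 against 1.32 at d1. The summed lysosomal level was 36.8 at d0 and 45.1 at d1 in the chosen cells, but 22.3 and 16.8 in the other epithelial cells, so that the larger count at d1 came with a lower level in the cells compared with. Of the endocytic genes none of 8 was past 2 times at d0, and FCGRT, the neonatal Fc receptor that carries milk antibody, had a level of 9.27 against 8.40. LRP2, the partner of cubilin in kidney epithelium, had 0.00229 at d0 and no UMI at d1. Of 6 immunity genes that passed, 5 were at least 2 times higher at d0, B2M with 11.7 against 5.18, while B2M was at 15.5 in the non-epithelial cells. In iron handling FTH1, the ferritin heavy chain, had 148.2 against 80.8, and 3 of 8 genes were past 2 times, among them the iron exporter SLC40A1. Of the lists for sugar metabolism 1 of 5 genes was past 2 times (PCK1), for amino acid transport 1 of 6, for intestinal transcription factors 2 of 16, for stress response 2 of 12, for detoxification 1 of 6, for fatty acid oxidation none of 8 and for junctions and keratins 1 of 17, KRT18, which was lower, at 0.487 against 2.03. No BEST4 cell gene reached the filter, and these 6 genes summed to 0.173 in the chosen cells. The 13 mitochondrially encoded genes took up 1390 per 10000 at d0 in the chosen cells and 1038 in the other epithelial cells.

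Within the chosen cells, genes differed in how they went with the summed rule genes, which again describes the choice. From cells with 15 to 25 per 10000 to cells with 50 and over at d0, the level of PRAP1 went from 22.7 to 60.9, that of MEP1B from 2.74 to 7.82 and that of LYPD8 from 7.95 to 28.4. These genes climbed at both ages, while the median depth of the cells went down from 10467 to 6788 UMIs at d0. KRT8 went the other way, from 28.8 to 23.7 at d0 and from 23.0 to 11.5 at d1. FABP1 was nearly flat within the cells at d0, at 25.8 and 31.0. APOE, a lipoprotein best known from liver and macrophages, was highest in the cells just above the limit, at 4.12 (15 to 25 per 10000), and had 0.494 in cells with 50 and over and 0.385 in epithelial cells under 5. Below the limit, at 5 to 15 per 10000, it still had 2.65, so that some of the cells that carried APOE lay outside the rule.

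**Figure D3:**
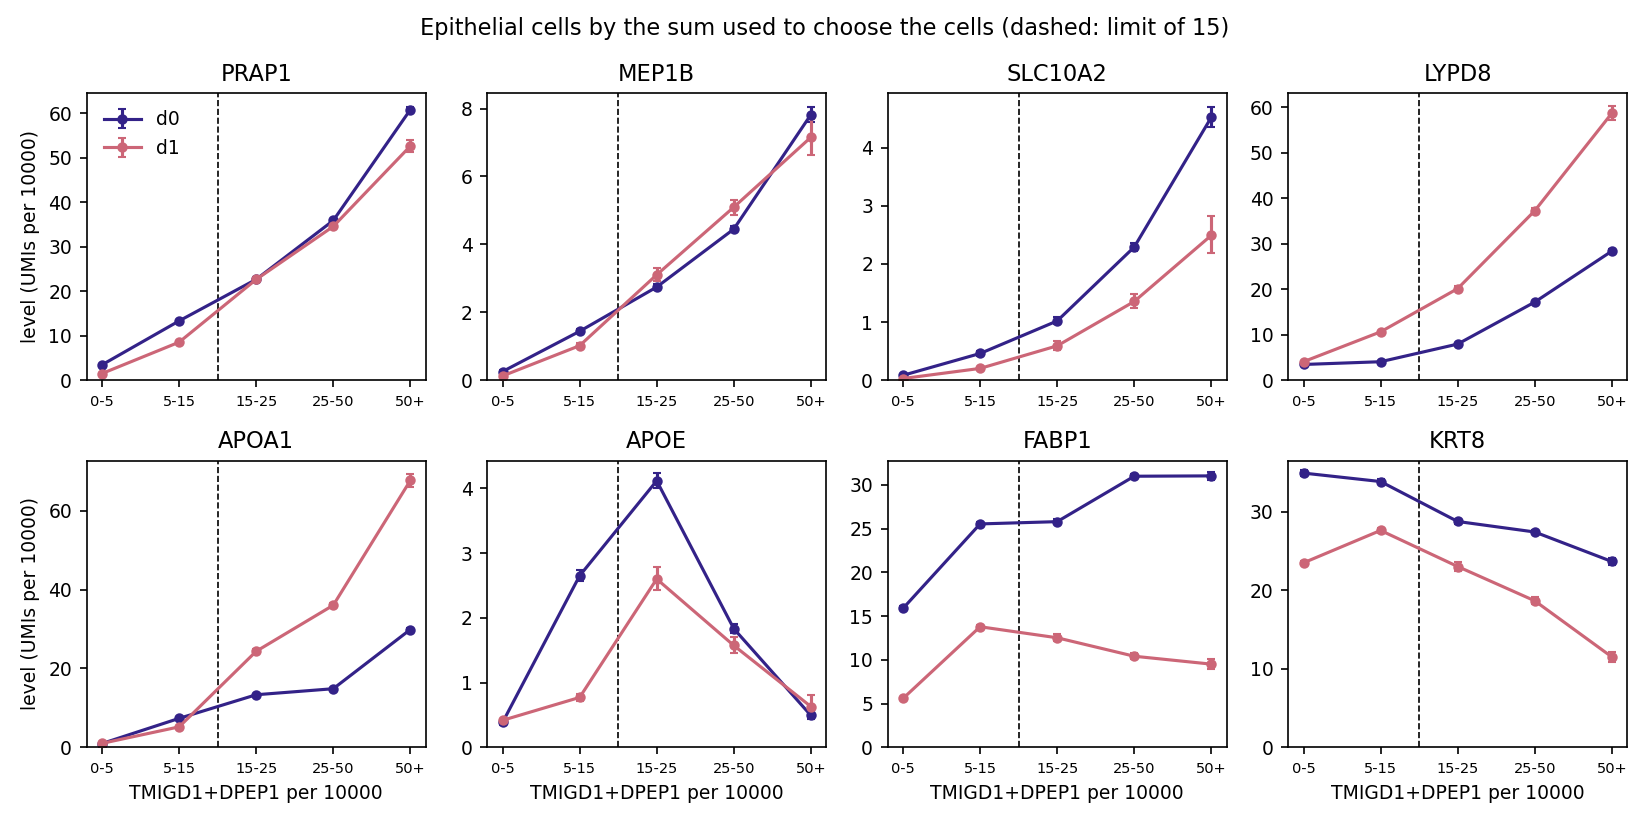
Levels (UMIs per 10000; bars, exact 95% intervals) of PRAP1, MEP1B, SLC10A2, LYPD8, APOA1, APOE, FABP1 and KRT8 in epithelial cells binned by TMIGD1 plus DPEP1 per 10000, at d0 and d1, with the limit of 15 dashed. The first 5 climb across the bins within the limit, KRT8 is lowest in the last bin, and APOE peaks in the bin just above the limit.

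Clustering of the d0 and d1 cells, with the rule genes and mitochondrial genes left out, gave 12 sub-clusters, which are described by number and by their leading genes, as a description of what the clustering used. Sub-clusters 1, 2, 4, 6 and 8 came almost wholly from d0 and sub-cluster 3 from d1, with 570 of its 575 cells. Sub-cluster 5, led by MUC12, held 364 cells of d0 and 74 of d1 and had a median of only 4213 UMIs. Sub-cluster 7 was present at a like share at both ages, with 240 cells or 7.31% at d0 (6.44 to 8.26) and 59 cells or 6.75% at d1 (5.18 to 8.62). The other 4 sub-clusters, 208 cells in all, were led by genes of other cell types. They were 2.83% of the d0 cells and 13.2% of the d1 cells. Sub-cluster 9 was led by CCL5 and SLA-DRA, 10 by TFF3 and CLCA1, 11 by COL3A1 and 12 by NTS and FABP5, with IGFBP7, PLVAP and PECAM1 among its first 7 genes. Whether these barcodes held more than 1 cell was not tested.

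Sub-cluster 7 had the largest ratio of the 8 not led by genes of other types, a log2 of 6.56 for APOE against the other chosen cells. Its enteroendocrine genes summed to 4.01 against 1.225, with PYY found in 4.17% of its d0 cells, and SPINK4 of the goblet genes was at least 2 times higher and TFF3 at least 2 times lower. Its 7 leading genes were APOE, APOC2, BEX4, GPX3, CTSC, SCPEP1 and PLA2G7. APOE had a level of 29.3 in its d0 cells and 19.5 in its d1 cells, and the sub-cluster held 95.1% of all APOE UMIs of the chosen cells at d0 and 76.6% at d1. In the other chosen cells of both ages together APOE had 0.192. Of genes of all kinds 187 of 2761 (6.77%) were at least 2 times higher than in the other chosen cells, and the summed level of the lysosomal list was 119.4 against 31.7. LGMN, the lysosomal endopeptidase legumain, had 14.6 in the d0 cells and lay between 18.9 and 21.2 (95% interval) in the d1 cells, CTSC, cathepsin C, 8.89 and 11.3, CTSB, cathepsin B, 8.15 and 9.51, and PSAP, the precursor of the sphingolipid activators, 10.8 and 20.6. DAB2, the clathrin adaptor of endocytosis, had 20.2 and 15.5, against 4.37 and 4.75 in all chosen cells. APOA1 reached 74.9 and 125.2 and APOB 26.5 and 28.3. All of these genes were high at both ages.

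Colonic surface genes were low in the same sub-cluster, with 7 of 16 ion and water transport genes at least 2 times lower than in the other chosen cells, beside 5.03% of all genes, and 2 higher. CA4 had a level of 1.27 at d0 and 2.98 at d1, GUCA2A, the hormone guanylin, 0.446 and 0.132, KRT20 2.23 and 2.29, and SI 0.126 and 0.198. Bile acid uptake was low as well, with SLC10A2 at 0.717 and 0.478. The label markers MEP1B, at 6.59 and 9.51, and PRAP1, at 42.3 and 55.7, were not. EPCAM had 10.6 and 13.02, against 22.1 in sub-cluster 1 at d0 and 23.5 in sub-cluster 3 at d1. KRT8 had 12.9 and 7.67, against 25.9 and 21.0 in the same sub-clusters. The junction and keratin genes summed to 80.81 against 130.7 in the other chosen cells. TMIGD1 was 10.5 and 8.62, against 22.9 and 18.1 in all chosen cells, and DPEP1 was 13.7 and 18.6.

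FABP6 and SI were among the leading genes of sub-cluster 8, with 186 of its 187 cells from d0. FABP6, the ileal bile acid binding protein (chr16:63297594-63303675), had a level of 56.8 (55.7 to 57.9) in its d0 cells, and 58.9% of all FABP6 UMIs of the d0 cells lay in it. The 10% of d0 cells with most FABP6 held 93.3%. The next genes were CPO, a membrane carboxypeptidase, at 1.10 in the whole sub-cluster, CCL25, the small intestinal chemokine that attracts T cells, at 1.29 in the d0 cells, and SI at 3.55, and SMIM24 was 19.5. FABP6 was thus concentrated in few cells.

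Sub-clusters 1 to 6 had smaller leading ratios than FABP6 in sub-cluster 8, but some differed in more genes. Sub-cluster 5, in which MUC12 had 4.67 against 1.425, differed mostly by lower levels, with 0.376% of 2662 genes at least 2 times higher and 5.97% lower. Of the stress response genes 8 of 12 were lower in it, DNAJB1 and HSPA8 among them, with a summed level of 33.55 against 76.63, and of the intestinal transcription factors 6 of 16, FOS and JUN among them, with 33.08 against 96.95. Sub-cluster 1, the largest with 925 cells, was led by GUCA2B (2.35 against 0.978) and GUCA2A (8.55 against 4.28), the precursors of uroguanylin and guanylin. Sub-cluster 2 was led by ST3GAL1, a sialyltransferase, and RBP5, a retinol binding protein, with log2 ratios of 1.38 and 1.30. Sub-cluster 4 was led by ID3 at 3.95 against 1.16, with PYY, an enteroendocrine gene, and MYC among its first 7 genes. PYY had 1.38 against 0.3805, but at d1 its 686 UMIs lay in 5.26% of 19 cells, a single barcode, and at d0 its level there was 0.354. Of 10 hydrolases 5 were at least 2 times lower in sub-cluster 4 than in the other chosen cells. They were MEP1B, ANPEP, ENPEP, XPNPEP2 and DPEP1, of which DPEP1 chose the cells and is given as a description. Of lysosomal genes 7 of 18 were lower. Both counts stand beside 3.62% of all genes lower and 0.994% higher. Sub-cluster 6 was led by TM4SF4, at 1.55 against 0.222, and FDFT1, the squalene synthase, at 1.97 against 0.573. Sub-cluster 3, from d1, was led by DUOX2, at 1.23 against 0.0541, MT1D and GBP1, and 4 of 7 immunity genes were at least 2 times higher in it, beside 2.04% of all genes higher and 0.756% lower.

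**Figure D4:**
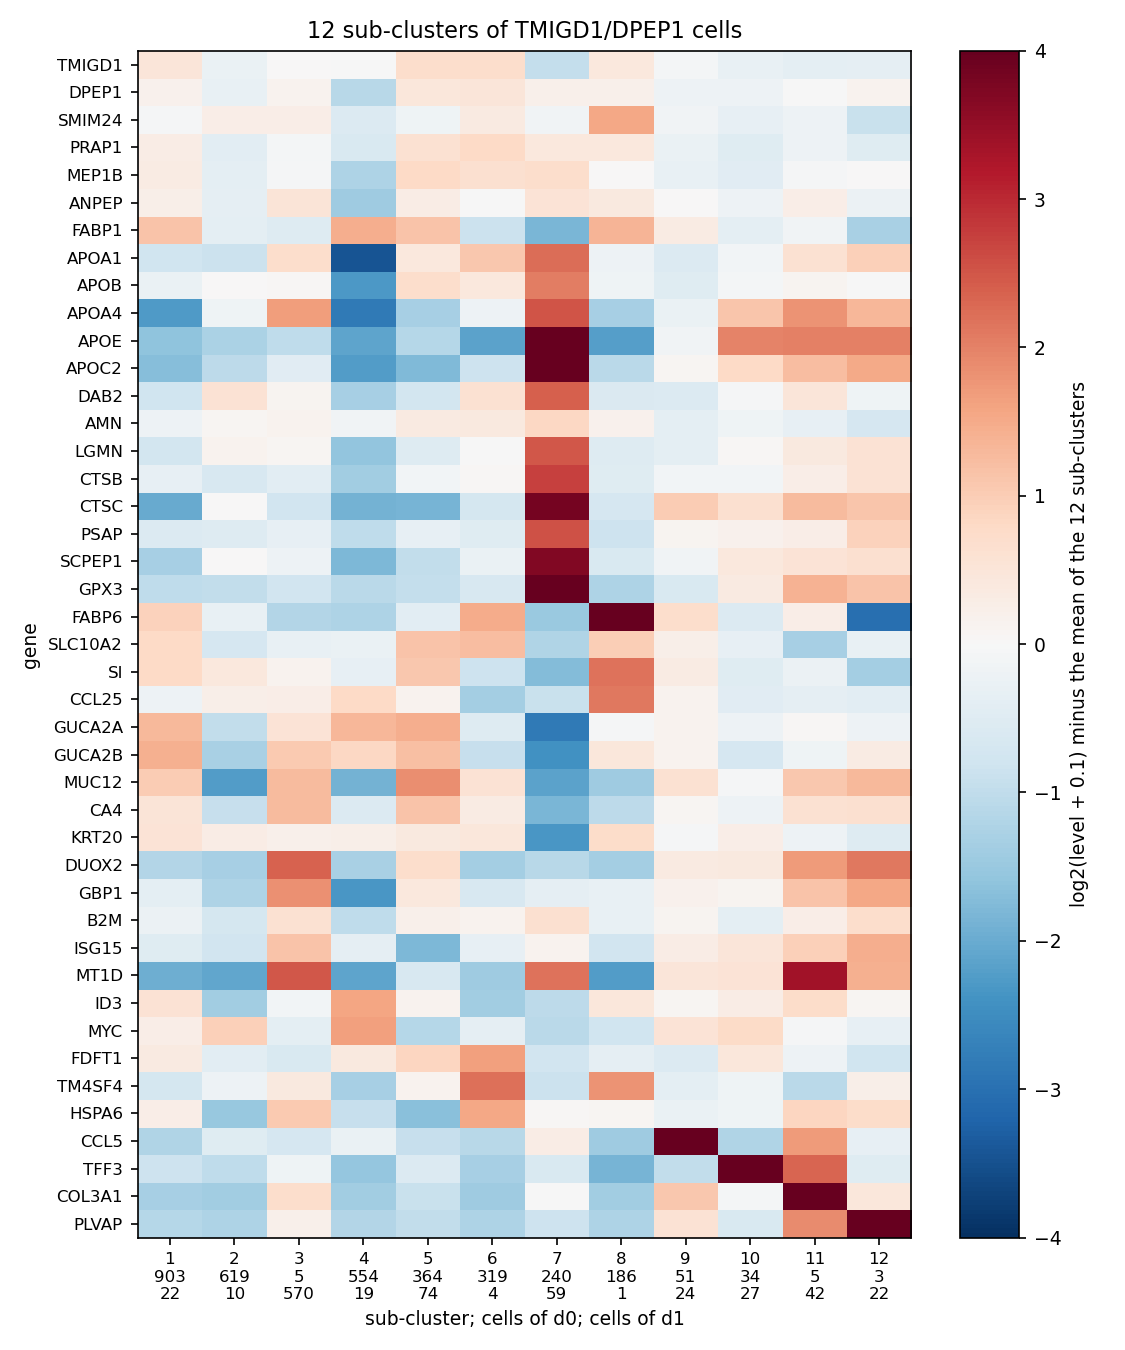
Levels of label markers and leading genes (vertical axis) in 12 sub-clusters of the d0 and d1 cells, as log2(level + 0.1) minus the mean of the 12 sub-clusters; colours end at -4 and 4, and the numbers under each column are its cells from d0 and d1. Sub-cluster 7 stands out in APOE, APOC2 and lysosomal genes, 8 in FABP6 and SI, 3 in DUOX2, GBP1 and MT1D, and 9 to 12 in genes of other cell types.

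Which genes differed between the d1 and the d0 cells was asked over 2658 genes with a mean level of at least 0.5. Most levels were close, with a median log2 ratio of -0.01, and 58 genes (2.18%) were at least 2 times higher and 17 (0.64%) at least 2 times lower at d1. Of these, 30 of 58 and 8 of 17 were past 2 times in the same direction in the other epithelial cells, so part of the difference was not particular to the chosen cells. Without cells that held 3 or more UMIs of goblet, lymphocyte, stromal and endothelial genes together, 38 of the 58 higher genes and 14 of the 17 lower genes were kept. That choice left out a large part of the cells and was not scaled to depth. By goblet genes alone it took out 1641 cells (49.98%) at d0 and 546 (62.5%) at d1. Leaving out only sub-clusters 9 to 12, a choice made after seeing the data, kept 48 of the 58 higher genes and 16 of the 17 lower genes. Of those not kept, COL3A1, IGFBP7, FABP5, CD74 and CLCA1 stayed past 2 times but fell below the mean level of 0.5. With 1 library per age nothing here has a replicate check.

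The bile acid carrier FABP6, the fatty acid carrier FABP1 and the sterol enzymes SQLE and MSMO1 were lower at d1. FABP6 had a level of 5.42 (5.35 to 5.502) at d0 and 0.602 (0.550 to 0.657) at d1, a log2 ratio of -2.98, and 1 barcode held 32.5% of its UMIs at d1. The share of cells with a FABP6 UMI was 30.3% and 8.81%, or 15.7% and 3.78% after thinning, against 5.67% and 0.659% of thinned non-epithelial cells. In the other epithelial cells its level fell by 2.80 on the log2 scale as well. SLC10A2 went from 2.24 to 1.19, -0.86, which did not reach 2 times, and FABP6 was the only 1 of 5 bile acid genes past it, with a list median of -0.85. FABP1 went from 29.2 (29.1 to 29.4) to 11.14 (10.9 to 11.4), -1.38, and -1.52 in the other epithelial cells. ANXA13, an annexin of intestinal epithelium, went from 6.84 to 2.59 and FGFBP1, a carrier of fibroblast growth factors, from 2.925 to 0.745. SQLE and MSMO1, enzymes of cholesterol synthesis, went from 1.38 to 0.427 and from 2.97 to 1.32, against 1.02 to 0.638 and 1.44 to 0.944 in the other epithelial cells. The remaining 4 of the 10 lowest ratios were PMM1, MYLIP, CITED2 and MYC, with log2 ratios from -1.27 to -1.11. PMM1 is a phosphomannomutase and CITED2 a transcriptional coregulator. MYLIP encodes the ligase that degrades the LDL receptor, and MYC a growth factor-induced transcription factor.

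Of the lipoprotein genes, APOA4 and APOA1 were higher at d1 in these cells. APOA4, an apolipoprotein of chylomicrons (chr9:44201587-44204072), went from 0.690 (0.663 to 0.719) to 4.44 (4.30 to 4.58), a log2 ratio of 2.52, against -0.15 in the other epithelial cells. APOA1 went from 16.9 (16.7 to 17.0) to 35.3 (34.9 to 35.7), 1.06, against -1.21. The other epithelial cells differed in make-up between the ages: 1054 had under 5 per 10000 of the rule genes and 1058 had 5 to 15 at d0, against 2647 and 691 at d1. Within these bins the APOA1 level went from 0.970 to 1.01 and from 7.35 to 5.20, under 2 times in both. CREB3L3, a membrane-bound transcription factor of lipid metabolism, went from 0.621 to 1.97, 1.52, against -0.71. Of 13 genes of lipid absorption that passed, these 3 were at least 2 times higher, beside 2.18% of all genes, and FABP1 at least 2 times lower, beside 0.64%. In single cells the upper quartile of the APOA1 level was 23.6 per 10000 at d0 and 59.3 at d1. APOA1 was also higher at d1 in non-epithelial cells, at 2.49 and 8.49, and what free RNA of APOA1 added to the chosen cells was not tested.

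Metallothioneins MT1D and MT-2B and several defence genes were higher at d1. MT1D, a metallothionein that binds zinc and copper, had the largest ratio, with a level of 0.0155 (54 UMIs) at d0 and 3.04 (2.92 to 3.16) at d1, and a UMI in 0.761% and 26.8% of the cells (0.213% and 15.9% after thinning). Its level in the other epithelial cells was 0.00934 and 0.125, and in non-epithelial cells 0.0443 at d1. MT-2B, of the same family, went from 0.101 to 1.30, with 1.00 and 3.43 in non-epithelial cells, and since these copies are alike, reads may have been split between them. DUOX2, the epithelial oxidase that makes hydrogen peroxide at the surface, had 12 UMIs at d0, a level of 0.00344, and 898 UMIs at d1, 1.08, with a UMI in 0.335% and 39.5% of the cells against none of 388 and 2.21% of non-epithelial cells (median depths 2634 and 3349). After thinning, 18.9% of the d1 cells and 1.20% of non-epithelial cells had one. GBP1, an interferon-induced GTPase, went from 0.368 to 2.79 and SLPI, a secreted antiprotease, from 0.902 to 5.08, against 0.0807 to 0.476 and 1.30 to 4.31 in the other epithelial cells. Paralogs of GBP1 and of the SLA genes may also share reads. Of 8 genes of epithelial immunity that passed, 5 were at least 2 times higher (SLA-1, SLA-3, CD74, DUOX2 and ISG15), beside 2.18% of all genes, and none lower. CD74, at 0.194 and 1.135, and DUOX2 passed only through the d1 cells. SLA-1, a class I antigen-presenting molecule, went from 4.08 to 10.8, and from 1.73 to 4.75 in the other epithelial cells, and ISG15, an interferon-induced ubiquitin-like protein, from 0.842 to 3.01 against 0.559 to 0.681. CD74 did not keep its mean level of 0.5 without sub-clusters 9 to 12, where it went from 0.0507 to 0.348.

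The other 4 of the 10 highest ratios moved with genes of other cell types. COL3A1, a fibroblast collagen, went from 0.0126 to 1.16, FABP5 from 0.0218 to 1.30 and IGFBP7 from 0.0395 to 1.49. Each had a higher level in non-epithelial cells at d1, of 20.3, 36.1 and 40.4, and sub-clusters 9 to 12 held 70.5%, 79.1% and 76.9% of their UMIs in the d1 cells. Without these sub-clusters the levels were lower at d1, with 0.400, 0.319 and 0.403, but still above those at d0, of 0.00297, 0.00178 and 0.0196, with log2 ratios of 2.28, 2.04 and 2.07. NTS, the gut peptide neurotensin, went from 0.00830 to 1.13, but 99.9% of its 938 UMIs at d1 lay in 1 barcode.

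**Figure D5:**
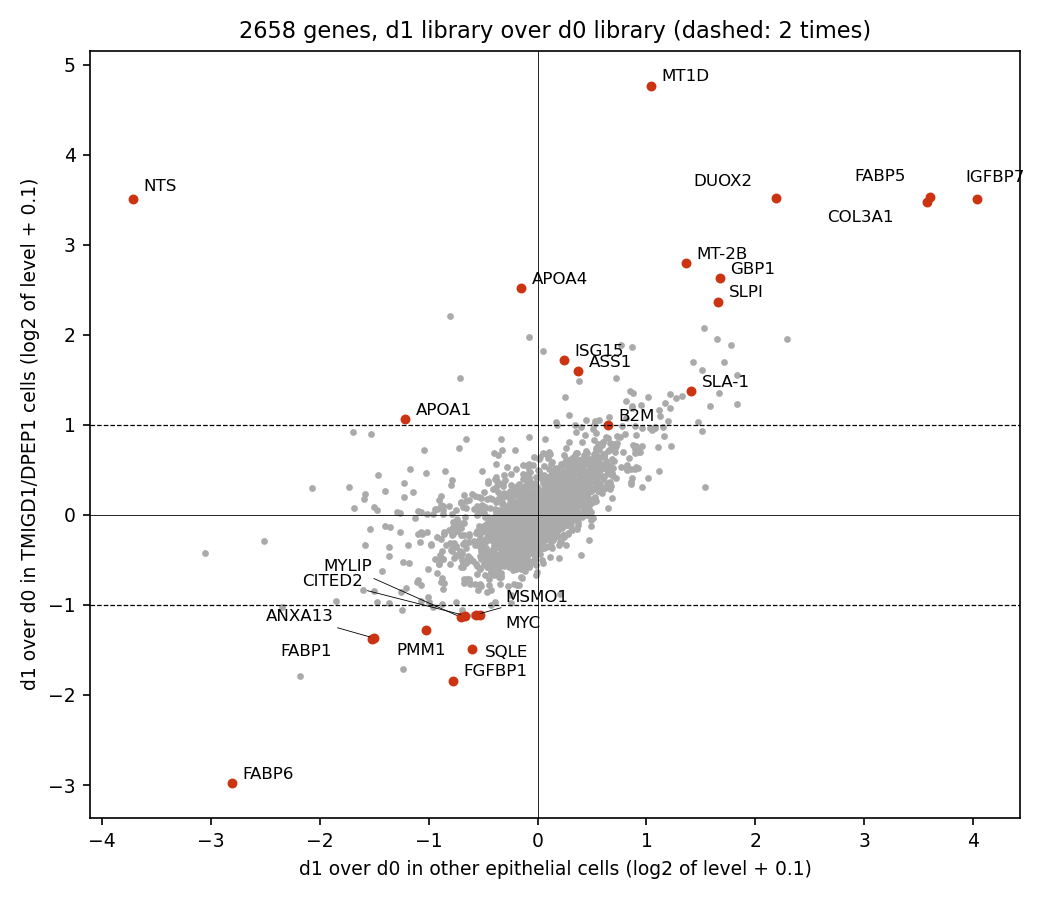
Log2 ratio of the d1 to the d0 level (0.1 added) of 2658 genes in the chosen cells (vertical) and in the other epithelial cells (horizontal); dashed lines mark 2 times. APOA4 is past 2 times only on the vertical axis and APOA1 in opposite directions on the axes (in cells of like rule sum its level in other epithelial cells was under 2 times apart), FABP6 and FABP1 are low on both, and NTS rests on 1 barcode.

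Few genes of these lists were past 2 times between the ages, as among all genes (2.18% higher and 0.64% lower). Without DPEP1 and TMIGD1, which chose the cells at both ages, none of 9 hydrolases, 15 brush border structure genes, 9 endocytic genes, 19 lysosomal genes, 5 sugar genes, 8 amino acid transport genes or 8 iron genes was past 2 times in either direction, with medians from -0.27 to 0.26. CA4, of the ion and water transport genes, went from 5.48 to 12.9 and was the only 1 of 14 past 2 times. CLDN4, a tight junction protein, went from 6.53 to 16.3 (1 of 17), PRDM1, a transcription factor known for keeping the suckling program of mouse enterocytes, from 0.534 to 1.20 (1 of 17; under 2 times without sub-clusters 9 to 12), and DDIT4, induced by stress, from 3.58 to 1.71 (1 of 12). Within sub-cluster 7, which both ages shared, APOA1 had a log2 ratio of 0.74, LGMN 0.45, APOE -0.58 and FABP1 -1.08. MT1D went from 0.0334 in 240 cells to 10.9 in 59 cells, and DUOX2 from no UMI to 0.115. Within sub-cluster 5, with 364 cells at d0 and 74 at d1, the log2 ratio was 0.43 for APOA1, 1.03 for APOB, 2.36 for APOE (0.0714 to 0.778) and -1.59 for FABP1. DUOX2 went there from 0.00510 to 2.545 and MT1D from no UMI to 1.63. The APOE value there rested on 14 UMIs at d0 and 22 at d1, found in 6.76% of its d1 cells. FABP1 was at least 2 times lower and MT1D higher at d1 in both sub-clusters.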

How the data were processed

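The deposited values were raw UMI counts, not normalized. The authors ran Cell Ranger 3.1.0 (version from the submitters' processing notes) on the Sscrofa11.1 genome, and each library has a count matrix of its own. The matrices held 15350, 14142, 10824, 16273 and 16975 barcodes from d0 to d21, more than the forced number that the methods name. All filters, groups and levels were computed here, with numpy 2.4.6, scipy 1.17.1, python-igraph 0.11.9 and scikit-learn 1.9.0. Other epithelial and non-epithelial cells passed the same filters; the latter had under 10 per 10000 of the 5 epithelial genes and at least 10 of lymphocyte, stromal and endothelial genes. No doublet caller was run; instead, cells of high depth or with other types' genes were left out as alternatives. Cells were thinned to 2000 UMIs for shares and for clustering (1000 variable genes, 15 components, 15 neighbours, Leiden resolution 0.5).

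Genes were named by rule: the 5 label markers, the 10 highest and 10 lowest ratios of d1 over d0, the 10 highest over other epithelial cells at d0, and listed genes of high level or past 2 times, without unnamed LOC genes; others were chosen after their values were seen. The members and the 18 function and 10 marker lists were chosen with earlier results of these data known. The calculation of the level ratios was checked on simulated counts into which changes of 4 times had been put. These counts held no variation between libraries, piglets or cells, so the check says nothing about the differences between ages. No column of the authors' own comparisons was used. Gene positions came from RefSeq on Sscrofa11.1. Of 419 listed genes 401 matched a gene of the matrices by symbol, and 18 were not analysed here. Some listed genes are not reported here by name.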

Additional observations from a re-analysis of the deposited data

Results flagged for a closer look

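APOA1 and NTS lay past 2 times in opposite directions in the chosen cells and in the other epithelial cells. For APOA1 the log2 ratio of d1 over d0 was 1.06 in the chosen cells and -1.21 in the other epithelial cells. Of these, 1054 had under 5 per 10000 of TMIGD1 plus DPEP1 and 1058 had 5 to 15 at d0, against 2647 and 691 at d1. Within these bins the APOA1 level went from 0.970 to 1.01 and from 7.35 to 5.20, under 2 times in both. For NTS it was 3.51 and -3.72, and the first value rested on 1 barcode. These differences were not tested, since each age is 1 library.

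Barcodes that reached the limit of TMIGD1 plus DPEP1 but failed the filters were not used in the comparisons. There were 2621 at d0, 766 at d1, 24 at d7, 2 at d14 and 15 at d21. Of the 2621 at d0, 1443 had under 2000 UMIs and 1178 failed on mitochondrial share alone. The levels of PRAP1, MEP1B and SMIM24 in the 2621 were 23.8, 4.15 and 3.14. In the chosen d0 cells they were 35.7, 4.44 and 7.16, and in the non-epithelial cells of that library 0.936, 0.134 and 0.159.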

How the results depend on the processing

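With 1 library per age, age, library and dissociation cannot be told apart, and no paired analysis was possible because each group has 1 sample. The share at d0 (53.7%) was 62.5% and 38.6% with limits of 10 and 25 per 10000, 49.98% and 46.3% with a mitochondrial limit of 20% and with none, 50.1% and 60.1% with at least 1000 and 4000 UMIs, 56.7% without mitochondrial genes in the rule and 21.6% of all barcodes with 200 genes. In the same order the share at d1 was 12.7%, 6.43%, 8.54%, 10.8%, 9.06%, 14.4%, 10.7% and 6.18%. At d7 it was 1.27% and 0.0369% with the other limits, 0.920% with at least 4000 UMIs and 0.292% of all barcodes with 200 genes. The order d0, d1, d7 held under every setting tried.

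Counts of genes past 2 times followed the pseudocount and the filter on low levels. For d1 over d0 in the chosen cells, 26 genes were higher and 5 lower with 1 added, 194 and 28 with no filter, and 18 and 6 with a mean level of at least 2. For the chosen over the other epithelial cells at d0 the counts were 36 and 22 with 1 added, 109 lower with no filter, and 53 and 15 with a mean level of at least 2. Against only the epithelial cells under 5 per 10000 of the rule genes, a choice made after seeing the data, they were 346 and 112. At d1 they were 98 and 56 with 1 added, 409 and 232 with no filter, 91 and 61 with a mean level of at least 2, and the lower count was 188 with each cell weighted alike, 189 after thinning and 182 with a limit of 25. Of the genes past 2 times between d1 and d0, 77.3% were higher, and 87.4% with no filter; over other epithelial cells at d0 it was 74.9%, and 62.1% with 1 added and 61.2% with no filter. The ratio of NTS turned to -0.11 without cells with genes of other types, -0.10 with a limit of 25 and -0.0669 without sub-clusters 9 to 12. The median of the immunity genes in the chosen over the other epithelial cells at d0 turned to -0.00191 with no filter. No other named gene or list median past 2 times changed direction.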
